A study of Homo sapiens with 9 samples.

Results

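Semaphorins, plexins and neuropilins form a family of guidance cues and their receptors, and their transcripts were measured in GBM43 cells grown in hyaluronic acid invasion devices. The family was taken as the protein-coding genes named SEMA3 to SEMA7 with a letter, PLXNA to PLXND with a number, NRP1 or NRP2. This gave 31 of the 58735 genes in the table, made up of 20 semaphorins, 9 plexins and 2 neuropilins, each under 1 symbol. GBM43 is a glioblastoma cell line, and the cells were seeded into three-dimensional hydrogels from which some of them invade outward. Polyadenylated RNA was sequenced from 3 groups of 3 libraries. MK801, an inhibitor of NMDA-type glutamate receptors, was given at 50 µM, and the MK801 libraries held the core and the invading cells together because too few cells had invaded to be cut away. Control invasive libraries held the cells cut from around the core of control devices, and control core libraries held the cells of the core itself. The labels give DMSO as the vehicle of the control devices, whereas the design text names culture medium. Separate cultures are not stated for the replicates, so every p-value below measures only the spread between these libraries. Invasive and core libraries with the same replicate number may come from the same device, which the labels do not say. The main fit treats them as unpaired. Because MK801 devices were not divided, a difference between MK801 and either control fraction cannot be told apart from a difference in which cells were collected. In bulk RNA, a lower level can also not be told apart from fewer cells that carry the transcript.

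Semaphorins are secreted or membrane-bound ligands that share a sema domain. Plexins are their main receptors and act on the cytoskeleton and on adhesion through a GTPase-activating domain in the cytoplasmic part. Neuropilins have short cytoplasmic tails, bind most secreted class 3 semaphorins together with A-type plexins, and also bind VEGF-family growth factors. The family steers axons and vessels in development, and several members have been studied in glioma for effects on migration.

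Libraries held 15584610 to 54409666 fragments in genes, and MK801 replicate 3 was the deepest. At equal depth, 15161 to 21517 genes were detected in MK801 libraries, 15975 to 19140 in invasive libraries and 20322 to 21414 in core libraries. Of 14 glioma and neural stem markers, VIM, CD44, SOX9, EGFR and SOX2 passed the expression filter, 8 stayed under 1 FPKM in every library, and OLIG1, OLIG2 and CHI3L1 were at 0 throughout. FPKM, the unit of all levels here, scales fragments to gene length and to a library total used by the authors. Relative to the fragments in genes, that total was 0.769 to 1.19 in MK801 libraries and 0.788 to 1.06 in invasive libraries. In core libraries it was 1.10 to 1.23. Its part in the differences was not tested beyond the alternatives of scaling given below. Levels of different genes are set side by side on that scale, uncorrected for GC content.

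Of the 31 genes, 20 reached 1 FPKM in at least 3 of the 9 libraries and were tested. These were 11 semaphorins, 7 plexins and both neuropilins. The 11 others stayed below that level, and 9 of the 31 stayed under 1 FPKM in every library. The limma test on log2(FPKM + 1), fitted to 11845 genes and all 9 libraries with Benjamini-Hochberg adjustment, called 0 genes and 0 family members at 0.05 in each of the 3 comparisons. Differences below are therefore given as values, with the overlap of the libraries. At an unadjusted p under 0.05, 12 members stood out between invasive and core cells, 7 between MK801 and core cells, and 4 between MK801 and invasive cells. Over all genes these counts were 4461, 2509 and 978, and limma-voom on the recovered fragments also called 0 genes in each comparison.

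Plexins, the receptors, were high in the invasive fraction. PLXNA1, PLXNB2 and PLXND1 were the 3 most abundant and together made up 83.4% to 85.7% of the summed plexin FPKM in invasive libraries and 71.3% to 76.5% in core libraries. All 7 tested plexins had higher log2 levels in invasive than in core cells, though 6 of 7 did with limma-voom or library quality weights and 4 of 7 with the GC trend removed. Their median log2 difference was 1.16, against -0.02 over all genes tested. For 6 of the 7 the 3 invasive libraries lay above the 3 core libraries, and the same held for 32.0% of all genes.

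PLXNA1 (ENSG00000114554, GRCh38 chromosome 3, 126988594 to 127037392), a receptor that pairs with neuropilins for class 3 semaphorins, had 27.04, 34.7 and 19.8 FPKM in MK801 libraries, 49.6, 52.6 and 48.3 FPKM in invasive libraries and 22.2, 16.4 and 17.9 FPKM in core libraries. No invasive library came near either of the other groups, and MK801 replicate 3 lay within the core range. The log2 difference of invasive over core was 1.38 ± 0.24 (SE; limma adjusted p = 0.0744), and that of MK801 over invasive was -0.89 ± 0.24 (adjusted p = 0.299).

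PLXNB2 (ENSG00000196576, chromosome 22, 50274979 to 50307627), the receptor for class 4 semaphorins such as SEMA4C, had 21.8, 22.2 and 11.5 FPKM in MK801 libraries, 30.3, 43.4 and 28.3 FPKM in invasive libraries and 15.0, 12.3 and 11.6 FPKM in core libraries. Invasive libraries again lay above both other groups, and MK801 libraries ran from below the lowest core value to above the highest. The log2 difference was 1.31 ± 0.29 for invasive over core (limma adjusted p = 0.0816) and -0.87 ± 0.29 for MK801 over invasive (adjusted p = 0.413).

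PLXND1 (ENSG00000004399, chromosome 3, 129555175 to 129606818), a receptor best known from blood vessels, had 22.5, 20.8 and 9.91 FPKM in MK801 libraries, 23.5, 29.4 and 27.01 FPKM in invasive libraries and 10.1, 7.04 and 8.48 FPKM in core libraries. MK801 replicates 1 and 2 stood just under the lowest invasive library, while MK801 replicate 3 stood inside the core range. Invasive over core came to a log2 difference of 1.54 ± 0.30 (limma adjusted p = 0.0790), MK801 over core to 0.91 ± 0.30 (adjusted p = 0.235) and MK801 over invasive to -0.63 ± 0.30 (adjusted p = 0.650).

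The 250 bases before the RefSeq start of these 3 genes (GRCh38.p14) are shown as a description of their base composition. The relation to GC content described further on was computed on transcripts, and these windows were not compared with the differences. SEMA5A is added as a ligand whose invasive libraries were the lower ones. Each sequence runs 5′ to 3′ on the strand of the gene, and capitals mark every GC box, the letters GGGCGG on either strand, which is the motif bound by SP-family factors. The windows are chr3:129606677-129606926 on the minus strand for PLXND1, chr3:126982865-126983114 on the plus strand for PLXNA1, chr22:50301670-50301919 on the minus strand for PLXNB2 and chr5:9546076-9546325 on the minus strand for SEMA5A.
PLXND1: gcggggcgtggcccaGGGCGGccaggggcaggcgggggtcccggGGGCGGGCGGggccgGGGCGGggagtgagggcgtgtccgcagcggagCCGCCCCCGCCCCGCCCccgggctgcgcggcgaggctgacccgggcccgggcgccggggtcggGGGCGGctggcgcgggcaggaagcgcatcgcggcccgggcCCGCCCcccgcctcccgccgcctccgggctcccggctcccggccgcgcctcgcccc
PLXNA1: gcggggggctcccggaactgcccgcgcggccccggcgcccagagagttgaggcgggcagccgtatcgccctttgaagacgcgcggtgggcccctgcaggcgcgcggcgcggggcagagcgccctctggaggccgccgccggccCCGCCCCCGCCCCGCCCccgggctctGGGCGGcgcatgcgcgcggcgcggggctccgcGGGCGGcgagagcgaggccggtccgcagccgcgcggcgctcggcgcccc
PLXNB2: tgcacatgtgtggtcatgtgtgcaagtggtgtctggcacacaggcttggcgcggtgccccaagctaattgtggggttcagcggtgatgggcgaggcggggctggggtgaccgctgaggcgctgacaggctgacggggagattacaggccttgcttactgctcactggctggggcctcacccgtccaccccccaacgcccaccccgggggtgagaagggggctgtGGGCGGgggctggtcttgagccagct
SEMA5A: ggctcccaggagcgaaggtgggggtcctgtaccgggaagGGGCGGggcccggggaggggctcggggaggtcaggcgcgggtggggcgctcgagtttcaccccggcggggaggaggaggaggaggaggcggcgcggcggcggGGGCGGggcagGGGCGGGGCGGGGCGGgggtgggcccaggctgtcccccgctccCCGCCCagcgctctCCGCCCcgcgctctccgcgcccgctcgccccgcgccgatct
The GC share of the window was 88.8% for PLXND1, 84.4% for PLXNA1, 66.4% for PLXNB2 and 82.0% for SEMA5A, with 9, 5, 1 and 7 GC boxes in that order, overlapping copies counted. The RefSeq start of PLXNA1 lay upstream of the gene start in the deposited table. Those of PLXNB2 and PLXND1 lay inside the deposited gene, and part of the PLXND1 window does too. Each of these windows thus describes 1 annotated start only. Among the 17 tested members with a RefSeq window, the first listed where a gene had several, 14 held a GC box, against 42.3% of 27305 genes counted the same way. The 3 without one were PLXNB1, SEMA3C and SEMA3B. The 27305 genes were not filtered by expression as the 17 members were, so the shares given here compare unlike sets. Of the untested members with a window, SEMA3G, SEMA4G, SEMA4D and PLXNC1 held a GC box. PLXNA4, SEMA5B, SEMA4A, SEMA3D, SEMA3E and SEMA6D did not. The other 4 motifs, none of which shares letters with the GC box hits shown, were TGANTCA (AP-1), ACGTG (hypoxia response), GGAATG (TEAD) and CACCTG (SNAI and ZEB), each searched on both strands. They were found in 0, 1, 1 and 3 of the 17 windows, against 6.60%, 18.7%, 11.9% and 17.5% of the 27305 genes. The part of GC boxes in the difference of any of these genes was not tested.

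PLXNA2, an A-type plexin for SEMA6A and class 3 ligands, had 1.67, 1.36 and 0.770 FPKM in MK801 libraries, 3.07, 2.97 and 2.29 FPKM in invasive libraries and 1.07, 0.308 and 0.744 FPKM in core libraries. At these low levels the invasive libraries still lay above the other 6, with a log2 difference of 1.16 ± 0.25 over core (limma adjusted p = 0.0794) and of -0.75 ± 0.25 for MK801 over invasive (adjusted p = 0.423). PLXNB1, the receptor for SEMA4D, had 2.75, 4.40 and 3.601 FPKM in MK801 libraries, 4.88, 4.99 and 4.70 FPKM in invasive libraries and 3.05, 3.55 and 3.07 FPKM in core libraries. PLXNB3, the receptor for SEMA5A, had 3.16, 3.16 and 2.12 FPKM in MK801 libraries, 5.20, 6.41 and 3.83 FPKM in invasive libraries and 3.77, 3.37 and 3.24 FPKM in core libraries.
For PLXNB1 and PLXNB3 the invasive libraries again lay above the core libraries, though PLXNB3 did so by a narrow margin. PLXNB3 also had all 3 MK801 libraries below all 3 core libraries, with a log2 difference of -0.24 ± 0.22 (limma adjusted p = 0.451). Part of PLXNB3, 20.4% of its exonic bases, is shared with SRPK3 on the same strand, and SRPK3 itself reached at most 0.104 FPKM.
PLXNA3, which forms the receptor for SEMA3F with NRP2, was the exception among the plexins. It had 4.80, 6.53 and 5.15 FPKM in MK801 libraries, 5.76, 8.61 and 5.46 FPKM in invasive libraries and 5.82, 6.53 and 5.88 FPKM in core libraries, and the groups overlapped in every comparison. Its log2 difference of invasive over core was 0.08 ± 0.22 (limma adjusted p = 0.775).

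The 2 remaining plexins were not tested. PLXNA4, an A-type plexin for SEMA3A and class 6 semaphorins, had 0.237, 0.328 and 0.167 FPKM in MK801 libraries, 1.61, 1.72 and 0.906 FPKM in invasive libraries and 0.821, 0.590 and 0.328 FPKM in core libraries. Its invasive libraries lay above the other 6, like those of PLXNA2. PLXNC1, the plexin that binds SEMA7A, reached at most 0.0456 FPKM in any library.

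**Figure D1:**
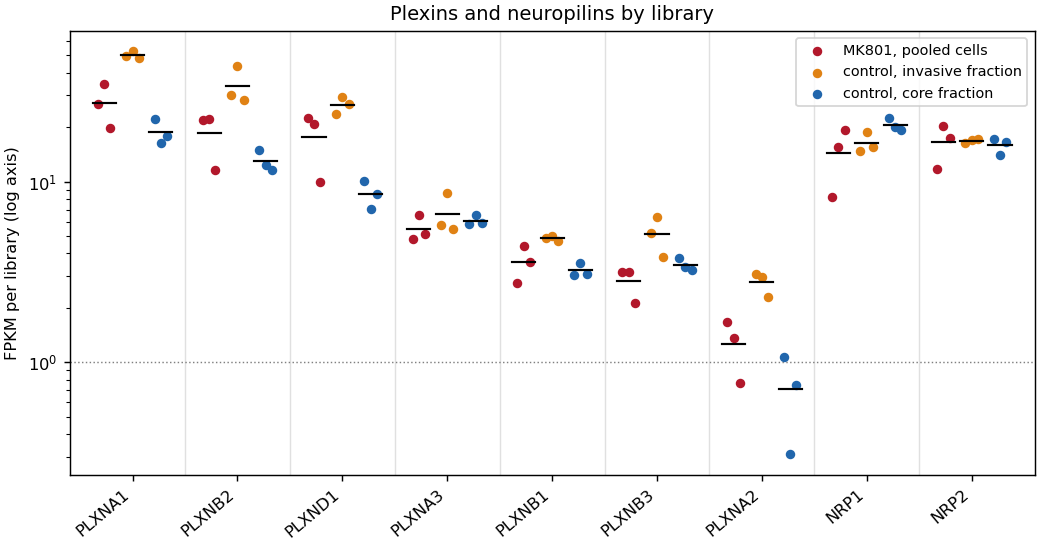
FPKM of the 7 tested plexins and the 2 neuropilins on a log axis, 1 point per library (MK801 red, control invasive orange, control core blue) with a bar at each group mean and a dotted line at 1 FPKM. For PLXNA1, PLXNB2, PLXND1, PLXNA2, PLXNB1 and PLXNB3 the invasive points sit above those of both other groups, while PLXNA3 and NRP2 overlap throughout.

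Between MK801 and invasive cells, the plexins were the members that separated. All 7 tested plexins had lower log2 levels in MK801 than in invasive libraries, and 6 of 7 did with library quality weights or without the 2 libraries with fewest genes detected. Their median difference was -0.68, against 0.00 over all genes. For 6 of the 7, all but PLXNA3, the 3 MK801 libraries lay below the 3 invasive libraries. In the same comparison 5.63% of all genes lay lower without overlap. None of the 11 tested semaphorins and neither neuropilin did so, though the untested PLXNA4 and SEMA3D did, and 0 tested members lay higher, against 5.22% of all genes. Whether plexins differ from the ligands in this respect was not tested.

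Summed over the 9 plexins, the level was 84.0, 93.5 and 53.1 FPKM in MK801 libraries, 124, 150.1 and 121 FPKM in invasive libraries and 61.8, 50.1 and 51.2 FPKM in core libraries. The 3 groups thus gave a clearly separate invasive level, while the MK801 libraries reached into the core range through replicate 3. The summed markers of 3 other cell types also lay higher in invasive than in core libraries, though not each of their genes did. The summed level of 8 fibroblast and pericyte markers, chiefly COL1A1 and PDGFRB, was 43.3 to 131 FPKM in MK801 libraries, 225 to 414 FPKM in invasive libraries and 39.8 to 76.8 FPKM in core libraries. Within that list RGS5, a pericyte marker, lay the other way, at 0.0570 to 0.166 FPKM in invasive against 0.385 to 0.589 FPKM in core libraries, and DCN and KCNJ8 overlapped. For 7 endothelial markers, chiefly TIE1, it was 5.72 to 11.2 FPKM in MK801 libraries, 12.1 to 28.4 FPKM in invasive libraries and 6.39 to 8.40 FPKM in core libraries, with CLDN5, VWF, TEK and ERG under 1 FPKM in every library. For 7 microglia and macrophage markers, chiefly CSF1R with the other 6 under 1 FPKM throughout, it was 1.76 to 4.83 FPKM in MK801 libraries, 4.36 to 5.84 FPKM in invasive libraries and 1.82 to 2.78 FPKM in core libraries. Neuron marker sums overlapped, at 1.84 to 3.81 FPKM in invasive and 2.00 to 3.67 FPKM in core libraries. Oligodendrocyte marker sums, 0.00962 to 0.110 and 0.0252 to 0.0705 FPKM in the same order, overlapped as well. The names of the lists do not show that such cells were present. The part of these genes in the plexin levels was not tested.

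The neuropilins did not follow the plexins. NRP1 (ENSG00000099250, chromosome 10, 33177492 to 33336262), the co-receptor for SEMA3A and VEGFA, had 8.16, 15.6 and 19.4 FPKM in MK801 libraries, 14.7, 18.9 and 15.6 FPKM in invasive libraries and 22.5, 20.01 and 19.3 FPKM in core libraries. The invasive libraries lay just below the core libraries, as did 32.8% of all genes, and the MK801 libraries ran from well below both to within the core range. NRP1's log2 difference was -0.32 ± 0.29 for invasive over core (limma adjusted p = 0.395) and -0.56 ± 0.29 for MK801 over core (adjusted p = 0.246). NRP2 (ENSG00000118257, chromosome 2, 205681990 to 205798133), the co-receptor for SEMA3F and VEGFC, had 11.8, 20.2 and 17.3 FPKM in MK801 libraries, 16.4, 17.0 and 17.2 FPKM in invasive libraries and 17.3, 14.0 and 16.6 FPKM in core libraries. All 3 groups overlapped, and the log2 difference of invasive over core was 0.08 ± 0.23 (limma adjusted p = 0.787). In core libraries NRP1 stood above NRP2 without overlap, whereas in MK801 and invasive libraries their ranges overlapped.

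The ratio of PLXNA1 to NRP1 was 3.31, 2.23 and 1.02 in MK801 libraries, 3.38, 2.78 and 3.09 in invasive libraries and 0.988, 0.819 and 0.926 in core libraries. All invasive libraries had roughly 3 PLXNA1 per NRP1 per length, and all core libraries had slightly less PLXNA1 than NRP1. All 3 MK801 libraries lay above the core libraries, replicate 3 only narrowly. PLXNA1 transcripts hold 61.6% GC and NRP1 transcripts 44.7%. With the GC trend removed, the log2 differences of invasive over core were 0.66 for PLXNA1 and -0.008 for NRP1, in place of 1.38 and -0.32, so the ratio differed less between the fractions. Summed over both genes, neuropilins had 19.97, 35.8 and 36.7 FPKM in MK801 libraries, 31.1, 35.9 and 32.8 FPKM in invasive libraries and 39.8, 34.0 and 35.9 FPKM in core libraries, with overlap in every comparison.

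**Figure D2:**
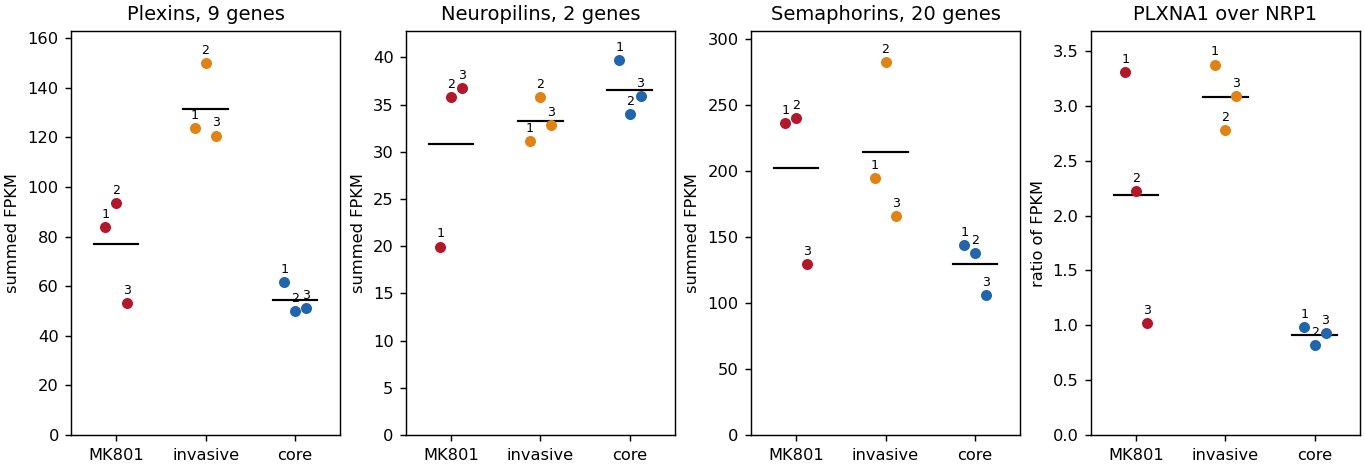
Summed FPKM of the 9 plexins, the 2 neuropilins and the 20 semaphorins, and the ratio of PLXNA1 to NRP1 FPKM, with 1 numbered point per library and a bar at each group mean. Invasive plexin sums of 121 to 150.1 FPKM lie above all others, neuropilin sums overlap, and the PLXNA1 to NRP1 ratio is 2.78 to 3.38 in invasive against 0.819 to 0.988 in core libraries.

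Among the ligands, 2 membrane-bound semaphorins dominated in every library. SEMA7A, which is anchored in the membrane by a lipid and signals through integrin β1 or PLXNC1, and SEMA4B, a transmembrane class 4 member, together made up 56.6% to 71.9% of the summed semaphorin level. SEMA7A (ENSG00000138623, chromosome 15, 74409289 to 74433958) had 100.5, 111 and 56.0 FPKM in MK801 libraries, 85.2, 144 and 55.8 FPKM in invasive libraries and 61.3, 62.8 and 39.5 FPKM in core libraries. All 3 groups overlapped for SEMA7A, and its log2 difference of invasive over core was 0.71 ± 0.39 (limma adjusted p = 0.180). SEMA4B had 56.5, 49.8 and 27.7 FPKM in MK801 libraries, 39.99, 58.6 and 37.8 FPKM in invasive libraries and 30.8, 29.5 and 23.4 FPKM in core libraries. Its invasive libraries lay above the core libraries, with a log2 difference of 0.67 ± 0.30 (limma adjusted p = 0.132).

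SEMA6B (ENSG00000167680, chromosome 19, 4542593 to 4559808), a transmembrane ligand of A-type plexins, had the largest positive log2 difference of invasive over core among the 11 tested ligands. It had 32.5, 25.02 and 11.1 FPKM in MK801 libraries, 20.8, 28.7 and 24.1 FPKM in invasive libraries and 9.02, 8.83 and 6.45 FPKM in core libraries. The core libraries lay below all 6 others, and the MK801 and invasive libraries overlapped. The log2 difference was 1.49 ± 0.34 for invasive over core (limma adjusted p = 0.0900) and 1.28 ± 0.34 for MK801 over core (adjusted p = 0.235).
SEMA6C, another class 6 ligand, showed the same arrangement at a lower level, with 3.86, 3.30 and 1.91 FPKM in MK801 libraries, 2.47, 3.40 and 2.73 FPKM in invasive libraries and 1.77, 1.28 and 1.26 FPKM in core libraries. Of the tested members, SEMA6B and SEMA6C had MK801 libraries above the core libraries without overlap, as did 9.89% of all genes. SEMA6C's log2 difference for MK801 over core was 0.70 ± 0.24 (limma adjusted p = 0.235).

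SEMA4C, the ligand of PLXNB2, had 14.6, 20.7 and 9.75 FPKM in MK801 libraries, 15.6, 15.4 and 13.0 FPKM in invasive libraries and 10.7, 11.7 and 7.83 FPKM in core libraries. SEMA4F, a transmembrane ligand first studied in neurons, had 3.89, 4.74 and 2.56 FPKM in MK801 libraries, 5.27, 4.42 and 4.31 FPKM in invasive libraries and 3.39, 2.43 and 2.71 FPKM in core libraries. In both, the invasive libraries stood above the core libraries and the MK801 libraries overlapped with each control fraction. The log2 differences of invasive over core were 0.51 ± 0.27 for SEMA4C and 0.56 ± 0.23 for SEMA4F (limma adjusted p = 0.176 and 0.116).

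The secreted class 3 ligands differed in both directions before any correction for GC content. SEMA3F (ENSG00000001617, chromosome 3, 50155045 to 50189075), which repels cells through NRP2, had 18.6, 15.3 and 6.71 FPKM in MK801 libraries, 13.2, 16.5 and 13.8 FPKM in invasive libraries and 7.89, 6.70 and 6.27 FPKM in core libraries. SEMA3B, a tumour suppressor candidate that lies close to SEMA3F on the same chromosome, had 1.64, 0.910 and 0.829 FPKM in MK801 libraries, 1.60, 1.58 and 1.26 FPKM in invasive libraries and 0.698, 0.646 and 0.885 FPKM in core libraries. For both, invasive libraries lay above core libraries, with log2 differences of 0.96 ± 0.32 for SEMA3F and 0.51 ± 0.22 for SEMA3B (limma adjusted p = 0.106 and 0.123). Outside the invasive group only MK801 replicate 1 reached 1 FPKM for SEMA3B. That gene thus passed the expression filter through the group where it is high, and is no separate support for a difference.
SEMA3A (ENSG00000075213, chromosome 7, 83955777 to 84492724), the collapsin that repels axons through NRP1, lay the other way. It had 0.271, 1.09 and 1.92 FPKM in MK801 libraries, 0.943, 1.09 and 1.02 FPKM in invasive libraries and 1.68, 2.11 and 2.85 FPKM in core libraries. All invasive libraries lay below all core libraries, and the log2 difference was -0.66 ± 0.30 (limma adjusted p = 0.133). SEMA3C, a class 3 ligand studied in glioma stem cells, had 0.485, 1.78 and 3.9998 FPKM in MK801 libraries, 2.97, 2.16 and 4.24 FPKM in invasive libraries and 4.75, 3.38 and 6.08 FPKM in core libraries, and overlapped in every comparison.
Within class 3, SEMA3F made up 87.97%, 79.5% and 49.5% of the summed class 3 level in MK801 libraries, 68.6%, 76.5% and 67.0% in invasive libraries and 51.6%, 51.6% and 38.7% in core libraries. The 3 invasive shares lay above the 3 core shares, and the MK801 shares spanned both. The transcripts of SEMA3F and SEMA3B hold 62.7% and 64.8% GC, and those of SEMA3A and SEMA3C 36.7% and 39.4%. With the GC trend removed, as described further on, the log2 difference of invasive over core was 0.22 for SEMA3F, 0.17 for SEMA3C, 0.08 for SEMA3A and -0.27 for SEMA3B, so SEMA3F, SEMA3C and SEMA3A had the same sign and the last 3 had turned.

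SEMA5A (ENSG00000112902, chromosome 5, 9035026 to 9546075), a transmembrane ligand with thrombospondin repeats that binds PLXNB3, was highest in the core. It had 2.16, 5.03 and 5.12 FPKM in MK801 libraries, 3.58, 3.73 and 5.43 FPKM in invasive libraries and 9.35, 6.80 and 7.32 FPKM in core libraries. Both other groups lay below the core without overlap, and they overlapped with each other. The log2 difference was -0.76 ± 0.29 for invasive over core (limma adjusted p = 0.111) and -0.84 ± 0.29 for MK801 over core (adjusted p = 0.235). Of the tested members, SEMA5A and PLXNB3 had MK801 libraries below the core libraries without overlap, as did 8.82% of all genes, and among the untested ones SEMA5B and SEMA3D did so at low levels.

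**Figure D3:**
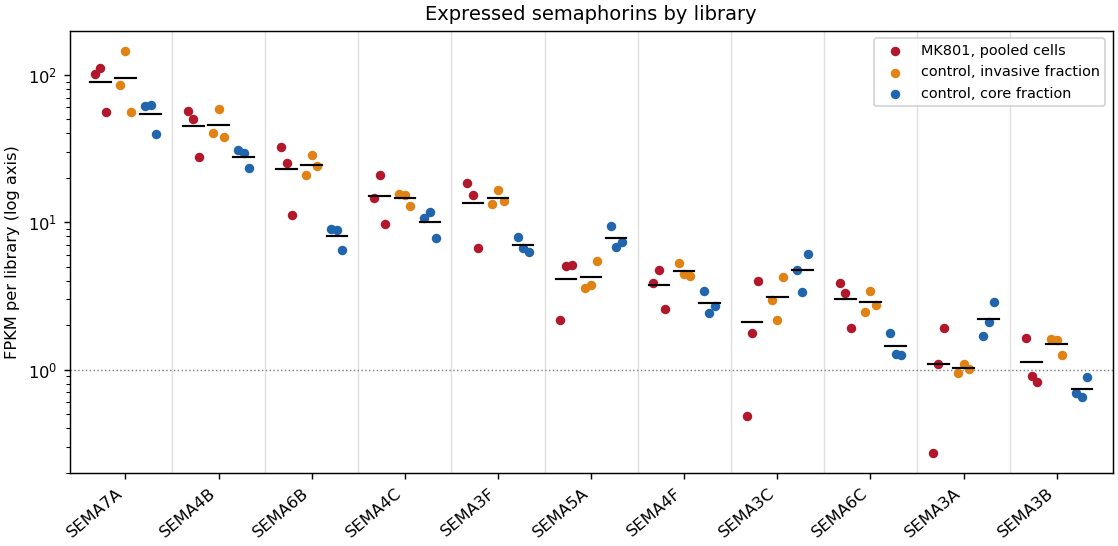
FPKM of the 11 tested semaphorins on a log axis, 1 point per library (MK801 red, control invasive orange, control core blue) with a bar at each group mean and a dotted line at 1 FPKM. SEMA7A and SEMA4B lie highest, core libraries sit lowest for SEMA6B and SEMA6C, and for SEMA5A they sit highest.

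The untested ligands include several with an abundant receptor. SEMA3E, the ligand that binds PLXND1 directly, was represented by 2 fragments over all 9 libraries, and SEMA6D, a ligand of PLXNA1, by 2 fragments. SEMA4D, the ligand of PLXNB1, reached at most 0.123 FPKM. SEMA3D was at 0 in all 3 MK801 libraries and reached at most 0.103 FPKM in the others, where 3 fragments equal at most 0.0263 FPKM in any library. SEMA6A reached 1.18, SEMA5B 0.985, SEMA4A 0.497, SEMA3G 0.489 and SEMA4G 0.227 FPKM in their highest library. SEMA4G shares 22.3% of its exonic bases with MRPL43 on the opposite strand, and whether the counting used strand is not given in the sources used here.
For SEMA7A, the low PLXNC1 level stood beside 31.2 ± 19.7 FPKM of ITGB1, which encodes integrin β1, in MK801 libraries, 40.8 ± 5.26 FPKM in invasive libraries and 63.6 ± 3.59 FPKM in core libraries (SD, n = 3 each). ITGA1, its partner chain, stayed at or below 0.751 FPKM and was not tested.

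Over ligands and receptors, invasive cells had higher log2 levels than core cells for 16 of the 20 tested members and lower ones for 4, with a median of 0.54 against -0.02 over all genes. The libraries did not overlap for 13 of the higher members and 3 of the lower ones (SEMA5A, SEMA3A and NRP1), 16 of 20 in all, against 64.8% of all genes in either direction. When the 6 control libraries were fitted alone, without the spread of the MK801 libraries, limma called 14 members at an adjusted p under 0.05. These were 12 that rose in invasive cells, against 26.3% of all genes, and 2 that fell, SEMA5A and SEMA3A, against 25.9% of all genes. Among the risers were PLXNA1, PLXNA2, PLXNB1, PLXNB2 and PLXND1, with SEMA3B, SEMA3F, SEMA4B, SEMA4C, SEMA4F, SEMA6B and SEMA6C. SEMA3B is counted in each of these sets of higher members, though it passed the expression filter only through its invasive libraries.

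Over the tested members as a set, these differences followed the base composition of the transcripts. Over the 20 tested members, the log2 difference of invasive over core and the GC content of the longest transcript had a Spearman's rho of 0.642, and over 11841 genes it was 0.759. These are descriptions across genes of the same libraries, and genes are not independent replicates. The 16 members higher in invasive cells had a median GC content of 62.0%. The 4 lower ones, SEMA5A, NRP1, SEMA3C and SEMA3A, had a median of 42.0%. Within the plexins, the size of the difference did not rise steadily with GC content. In rising order of GC content, PLXNA2 (54.2%), PLXNA3 (57.4%), PLXNA1 (61.6%) and PLXNB1 (62.3%) had 1.16, 0.08, 1.38 and 0.47. PLXNB2 (63.1%), PLXND1 (63.5%) and PLXNB3 (65.1%) had 1.31, 1.54 and 0.44. Fragment-weighted GC content was 49.7% to 53.6% in MK801 libraries, 51.9% to 53.7% in invasive libraries and 49.0% to 50.3% in core libraries. Its part in the differences was not tested beyond the adjustment that follows.

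**Figure D4:**
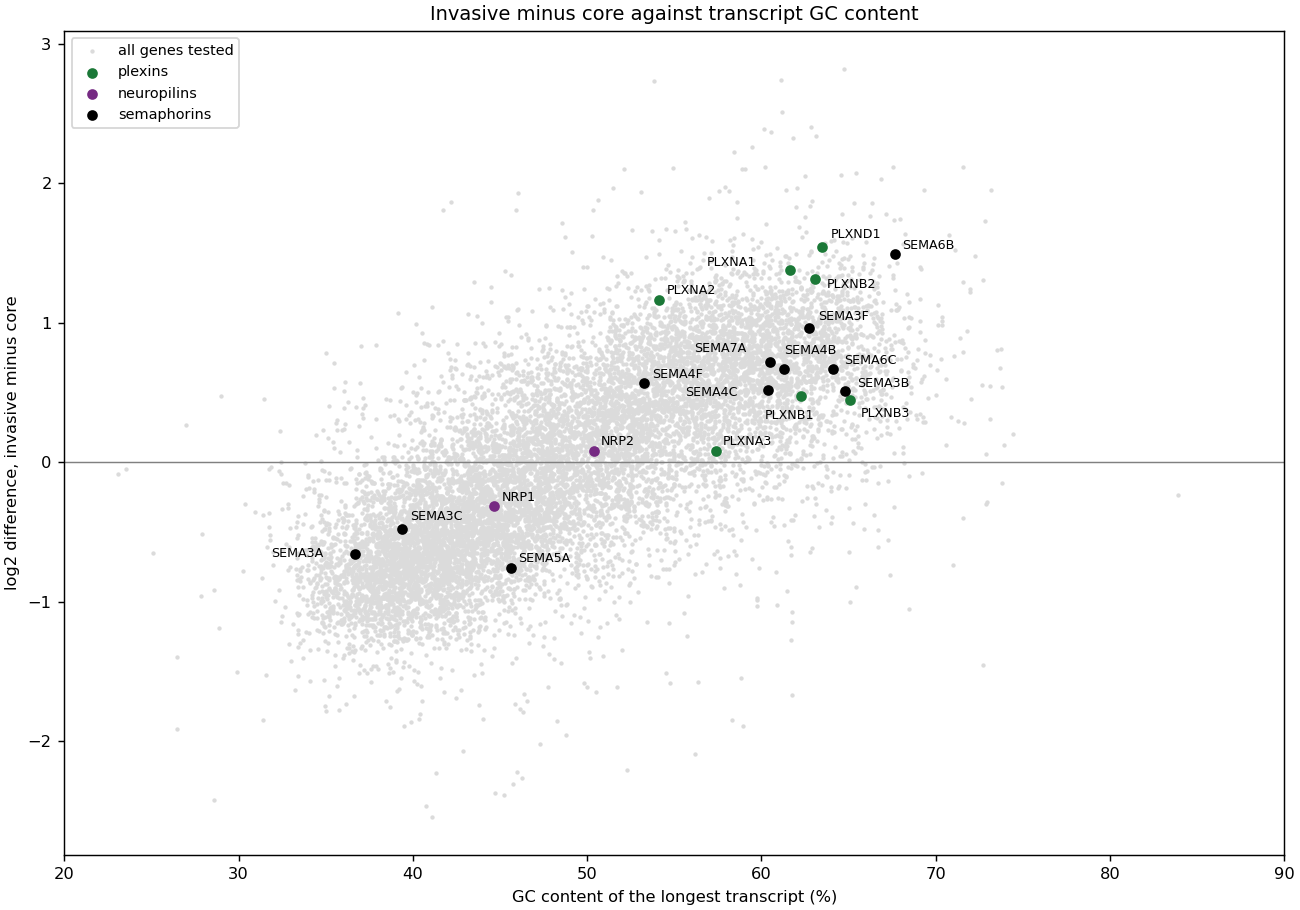
Log2 difference of invasive over core against the GC content in percent of the longest transcript, for all genes tested (grey) and the family members (plexins green, neuropilins purple, semaphorins black). Members follow the slope of the other genes, and PLXNA2, PLXND1, SEMA6B, PLXNA1 and PLXNB2 lie above the middle of the grey points.

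With the GC trend of each library removed by a smooth curve, 10 members were higher and 10 lower in invasive than in core cells, with a median of 0.01. PLXND1 then had a log2 difference of 0.79, PLXNA2 of 0.78, SEMA6B of 0.67, PLXNA1 of 0.66 and PLXNB2 of 0.56. PLXNB1, PLXNB3 and PLXNA3 came to -0.26, -0.34 and -0.49. The tested plexins thus divided into 4 higher and 3 lower, and the libraries of PLXNA1, PLXNA2, PLXNB2 and PLXND1 still lay above the core without overlap, as did 22.2% of all genes. Those of PLXNA3 and PLXNB3 lay below, as did 21.1% of all genes.
Fitted to the 6 control libraries alone after this adjustment, limma called PLXNA1, PLXNA2, PLXNB2, PLXND1 and SEMA6B as higher, against 10.0% of all genes, and PLXNA3 as lower, against 8.01%. Their adjusted p-values were 0.0218 for PLXNA1, 0.0364 for PLXNA2, 0.0191 for PLXNB2, 0.0189 for PLXND1, 0.0147 for SEMA6B and 0.0382 for PLXNA3.

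After the same adjustment, all 7 tested plexins were still lower in MK801 than in invasive libraries, with a median of -0.54, and for 5 of them (PLXNA1, PLXNA2, PLXNB2, PLXNB3 and PLXND1) the libraries did not overlap. SEMA3C also lay lower without overlap, as did 9.78% of all genes, and 0 members lay higher, against 7.98%. PLXNA1 then had a log2 difference of -0.76, PLXNB2 of -0.73 and PLXNA2 of -0.69. None of the 3 passed the limma test (adjusted p = 0.130, 0.0718 and 0.149). Against core cells, MK801 had higher log2 levels for 14 members and lower ones for 6 before the adjustment, and 7 and 13 after it. SEMA6B and PLXND1 then lay above the core libraries without overlap, as did 8.12% of all genes, and SEMA5A, PLXNA3 and PLXNB3 lay below them, as did 8.6%. With MK801 and invasive libraries fitted alone after the adjustment, limma called 0 members and 0.0169% of all genes as higher, and 6 of 20 members and 1348 of 11845 genes had an unadjusted p under 0.05.

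**Figure D5:**
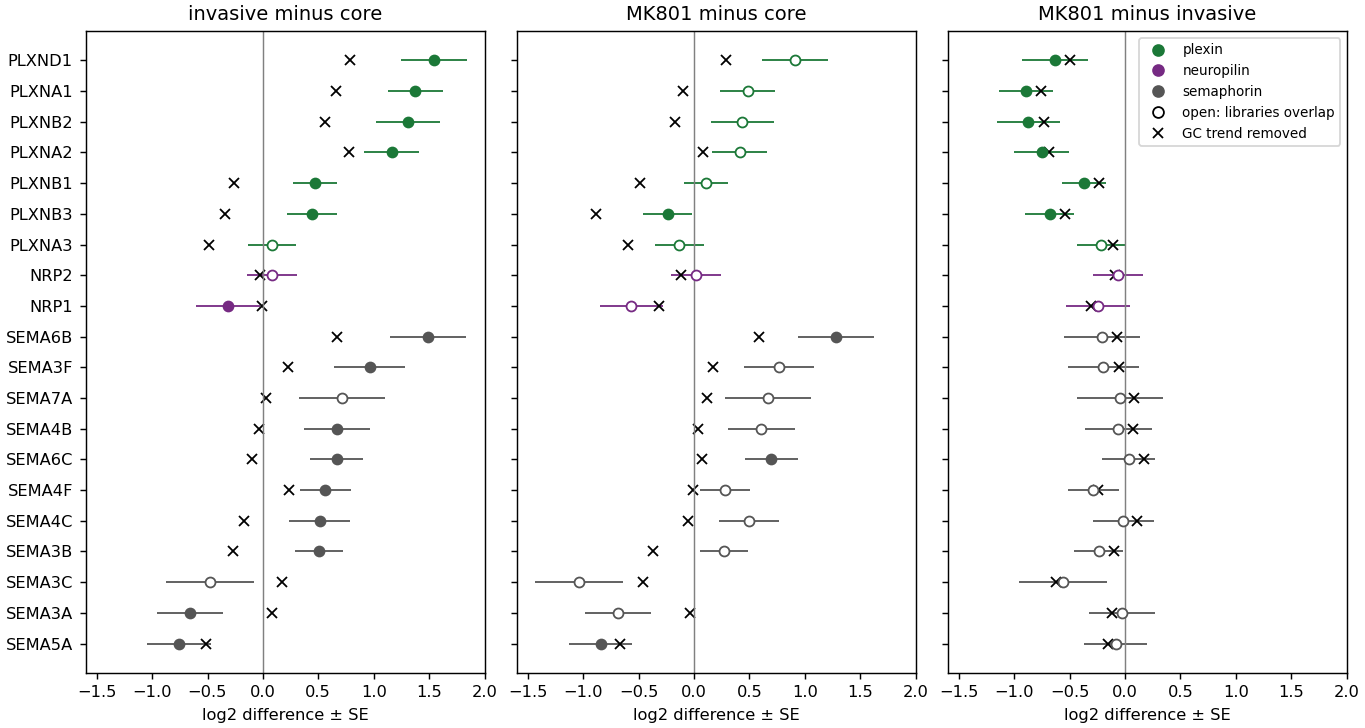
Log2 differences with their standard errors for the 20 tested members in the 3 comparisons, filled where the libraries of the groups do not overlap and open where they do, with crosses for the value after removal of the GC trend. Plexin circles lie right of 0 in the left panel and left of 0 in the right panel, and in the left panel 3 plexin crosses lie left of 0.

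The MK801 libraries differed among themselves. MK801 replicate 3 was nearer to the core mean than to the invasive mean for 18 of the 20 tested members, whereas replicate 1 was nearer to core for 5 and replicate 2 for 3. Of the 20 values, 12 of replicate 3 lay within the core range, against 0 of replicate 1 and 1 of replicate 2. Replicate 3 was also the deepest library and had the most genes detected at equal depth among the 9 libraries, and replicate 1 the fewest. Without replicate 3, limma called 13 members between MK801 and core cells, against 51.1% of all genes. Among them were SEMA6B at 1.71 (adjusted p = 0.00763), PLXND1 at 1.26 (adjusted p = 0.00763) and SEMA5A at -1.004 (adjusted p = 0.0175). Without replicate 1, or without replicate 2, limma called 0 members and 0 genes there. Replicate 3 was the MK801 library most often near the core, so the fit without it is no separate support for a difference.

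Genes that act with the family gave 0 calls in any of the 3 comparisons over all 9 libraries, as did all genes. Of 15 receptor partners and other semaphorin receptors, 4 were expressed and tested. PTK7, a co-receptor that associates with plexins, had 17.6 ± 4.94 FPKM in MK801 libraries, 25.4 ± 1.88 FPKM in invasive libraries and 10.95 ± 1.66 FPKM in core libraries (SD, n = 3 each). ERBB2, a kinase that couples to B-type plexins, had 5.28 ± 1.78 FPKM in MK801 libraries, 7.10 ± 2.26 FPKM in invasive libraries and 3.47 ± 0.497 FPKM in core libraries. For both, and for neither ITGB1 nor MET, the invasive libraries lay above the core libraries. With the GC trend removed, the log2 difference of invasive over core was 0.54 for PTK7, 0.25 for ERBB2 and -0.01 for ITGB1. Before that it was 1.15, 0.83 and -0.63.
Of 36 cytoplasmic effectors, 30 were tested, and 17 were higher and 13 lower in invasive than in core cells, with 13 and 10 without overlap, where 32.0% of all genes lay higher and 32.8% lower. RHOA, the small GTPase of contraction, had 351 ± 140.3 FPKM in MK801 libraries, 316 ± 48.9 FPKM in invasive libraries and 197 ± 9.78 FPKM in core libraries. CFL1, which severs actin filaments, had 219 ± 127 FPKM in MK801 libraries, 257 ± 81.5 FPKM in invasive libraries and 103 ± 16.3 FPKM in core libraries. LIMK1, the kinase that turns cofilin off, had 12.5 ± 4.55 FPKM in MK801 libraries, 13.2 ± 1.06 FPKM in invasive libraries and 5.95 ± 1.26 FPKM in core libraries. GIPC1, an adaptor that binds the tails of neuropilin and plexins, had 24.9996 ± 13.6 FPKM in MK801 libraries, 29.2 ± 4.35 FPKM in invasive libraries and 12.6 ± 1.96 FPKM in core libraries. The invasive libraries of all 4 lay above the core libraries, and the MK801 values spread widely. With the GC trend removed, the log2 difference of invasive over core was 0.76 for RHOA, 0.69 for CFL1, 0.63 for LIMK1 and 0.38 for GIPC1. Before that it was 0.67, 1.27, 1.04 and 1.16. Of the 10 lower without overlap, RND3 had means of 37.6 FPKM in invasive and 129 FPKM in core libraries. In the same order ROCK1 had 2.17 and 4.54 FPKM, and ROCK2 1.65 and 4.09 FPKM. They were chosen after their values were seen. The levels of RND3, ROCK1 and ROCK2 are not corrected for GC content, and their differences with the GC trend removed are not given here.
Of 10 other neuropilin ligands, 6 were tested. PGF, a placental growth factor that binds neuropilins, had 18.03, 7.82 and 4.68 FPKM in MK801 libraries, 22.7, 32.7 and 18.7 FPKM in invasive libraries and 7.68, 3.75 and 3.79 FPKM in core libraries. The invasive libraries lay above both other groups, with a log2 difference of 2.11 ± 0.43 over core (limma adjusted p = 0.0794). TGFB1 had 213 ± 134 FPKM in MK801 libraries, 237 ± 139 FPKM in invasive libraries and 93.4 ± 19.8 FPKM in core libraries, and VEGFB had 181 ± 115 FPKM, 180.3 ± 105 FPKM and 86.7 ± 23.6 FPKM in the same groups. The spread of TGFB1 and VEGFB within MK801 and invasive libraries was wide. With the GC trend removed, the log2 difference of invasive over core was 1.67 for PGF, 0.46 for TGFB1 and 0.13 for VEGFB. Before that it was 2.11, 1.21 and 0.94.
Of 7 processing proteases, 5 were tested. MMP14, a membrane protease that cleaves matrix and semaphorins, had 454 ± 169 FPKM in MK801 libraries, 651 ± 209 FPKM in invasive libraries and 318 ± 49.6 FPKM in core libraries. FURIN, the proprotein convertase that activates class 3 semaphorins, had 51.8 ± 15.7 FPKM in MK801 libraries, 52.8 ± 10.8 FPKM in invasive libraries and 30.6 ± 7.37 FPKM in core libraries. For both proteases, the invasive libraries lay above the core libraries. Their log2 differences of invasive over core were 0.99 for MMP14 and 0.78 for FURIN, and 0.36 and 0.06 with the GC trend removed. Of the 5, 3 were higher and 2 lower without overlap, where 32.0% of all genes lay higher and 32.8% lower. The lower 2 were the shedding proteases ADAM10 and ADAM17, chosen after their values were seen. ADAM10 had 0.638, 1.40 and 3.26 FPKM in MK801 libraries, 1.26, 1.94 and 2.67 FPKM in invasive libraries and 3.41, 3.48 and 4.21 FPKM in core libraries. ADAM17 had 0.854, 4.06 and 6.42 FPKM in MK801 libraries, 3.18, 1.83 and 2.95 FPKM in invasive libraries and 4.31, 5.16 and 5.17 FPKM in core libraries. For ADAM10 and ADAM17, differences with the GC trend removed are not given here.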

How the data were processed

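The deposited table gives FPKM per gene and library, which the authors computed after alignment with HISAT2 2.0.5 and counting with featureCounts 1.5.0-p3 on GRCh38, per the submitters' processing notes. Aligner settings and strand of counting are not given in the sources used here. All 9 value columns matched a sample, and 0 were left unmapped. Gene IDs and coordinates matched GENCODE 29 for 99.92% of rows. In each library the FPKM values were whole multiples of 1 fragment for 100% of values (tolerance 0.01 fragments), which gave the depths of 15584610 to 54409666 fragments. Floors of 3 fragments cover counting error only.

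Genes at 1 FPKM or more in at least 3 libraries (11845 genes) were tested with limma 3.58.1 in R 4.3.3 on log2(FPKM + 1), with 1 mean per group, 9 libraries, 6 residual degrees of freedom, a mean-variance trend and Benjamini-Hochberg adjustment at 0.05. Fold changes are on that scale, which understates the change of low genes. With 3 libraries a group, exact permutation stops at p = 0.1, so no such test is given. The GC trend was removed per library by a loess curve (span 0.3) on the GC content of the longest GENCODE 29 transcript. The fitting steps were tested on simulated data with a single dispersion, no GC trend and no wider spread among MK801 libraries. That check covers the code, and not how the test behaves on these data. Members and gene lists were chosen with earlier results of these data known. Every tested member is named. Each pathway list gave the 2 tested genes with the highest mean FPKM and the 2 with the smallest unadjusted p for invasive against core. MET, ITGA1, RND3, ROCK1, ROCK2, ADAM10, ADAM17 and the markers beyond these were chosen after their values were seen. Promoters came from RefSeq (GRCh38.p14), where 27 of the 31 members had an entry, and motif shares used the first window of each gene.

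Alternatives covered the pseudocount, the filter, scaling, the GC trend, a replicate block, 2 groups alone, limma-voom on recovered fragments, library quality weights and each library left out.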

Additional observations from a re-analysis of the deposited data

How the results depend on the processing

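With 3 libraries per group and wide spread among MK801 libraries, the number of calls depended on the setting, and so did many signs. The causes were not tested. Among the 20 tested members, 16 were higher and 4 lower in invasive than in core cells, and 10 and 10 with the GC trend removed. The counts for MK801 against core cells were 14 and 6, and 7 and 13 with the GC trend removed. For MK801 against invasive cells they were 1 and 19, and 11 and 9 with library quality weights. Of the members, 20 were expressed at 1 FPKM and 12 at 5 FPKM in 3 libraries. For invasive against core cells, 0 genes were called over 9 libraries, 6 with quantile normalization, 29 with the GC trend removed, 6179 with the 2 groups alone, 2134 with the 2 groups alone and the GC trend removed, and 7811 with library quality weights. Members called in that comparison numbered 14 with the 2 groups alone, 6 with the GC trend removed as well, and 18 with quality weights. Leaving out each library in turn gave 0 to 4894 genes and 0 to 11 members, with 4674 genes without MK801 replicate 1 and 4894 without MK801 replicate 3, and 11 members in both cases. For MK801 against core cells, quality weights called 7821 genes and 17 members, and leaving out each library gave 0 to 5936 genes and 0 to 13 members, the highest of both without MK801 replicate 3. For MK801 against invasive cells, 1 gene was called with the 5 FPKM filter, 73 with the GC trend removed, 2 with the 2 groups alone and the GC trend removed, and 3605 with quality weights, which also called 7 members. Leaving out each library gave 0 to 41 genes there, with 41 without MK801 replicate 1. The quality weights put 6.94 on MK801 replicate 2 and 0.162 and 0.156 on replicates 1 and 3.

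Some settings were chosen after seeing the data. Without the 2 libraries with fewest genes detected, 13 genes were called between invasive and core cells. With detected gene number as a covariate, 4 genes were called there, and 323 genes and 3 members (PLXNA1, PLXNB2 and SEMA3C) between MK801 and invasive cells. That covariate turned the invasive over core difference of NRP1 to 0.04.

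Removing the GC trend, in 3 fits with the same values, turned the sign of invasive over core for SEMA4B (-0.038), SEMA4C (-0.17), PLXNB1 (-0.26), PLXNB3 (-0.34), SEMA6C (-0.10), SEMA3B (-0.27), SEMA3A (0.078), SEMA3C (0.17), PLXNA3 (-0.49) and NRP2 (-0.03). The lower level of all 7 tested plexins in MK801 than in invasive cells had 1 exception each under quality weights and without the 2 libraries with fewest genes. Limma-voom scaled by the fragments in genes and not by the authors' total. It moved the median of all genes to -0.35 for invasive over core and -0.25 for MK801 over core. The members' medians of 0.38 and 0.17 are to be read against those shifts.

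With replicate number as a block, 2525 genes and 6 members (PLXNA1, PLXNA2, PLXNB2, PLXND1, SEMA3F and SEMA6B) were called between invasive and core cells. With the block and the GC trend removed, 38 genes were called there and 44 between MK801 and invasive cells. Deviations of same-numbered libraries had correlations of -0.15 to 0.61, 5 of 9 of them over 0.1. Not every library went best with its own number. These correlations neither establish nor exclude a pairing by device.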
